A study of Rattus norvegicus with 12 samples.

Results

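Glycolytic enzymes and target genes of the hypoxia-inducible factors (HIF) were examined in rat Schwann cells grown alone or with macrophages. The set held 39 genes, chosen by symbol for their known roles, with earlier results of these data at hand. It comprised 18 enzymes of glycolysis and 21 other genes. The others were 5 for transport and the pyruvate gate, 14 other HIF targets and 2 HIF subunits. Of the 39 genes, 38 had a row in a table of 30957 genes, and 37 had enough counts to be tested. Egln1 had no row of that name, so its level was not analysed, and it entered only the promoter search below. Slc2a3, the high-affinity glucose transporter of neurons, had 0 to 16 counts per library and stayed below the filter on low counts.

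RNA sequencing covered 12 libraries in 4 groups of 3, all of rat Schwann cells. The control group was Schwann cells alone, titled Rsc96 in the labels (RSC96 is an established rat Schwann cell line) and headed HSC96 in the table, with the treatment given as untreated. The MDM group was Schwann cells with monocyte-derived macrophages, titled PBMC, for which the treatment is also given as untreated. The BxTAM and MiaTAM groups were Schwann cells with tumour-associated macrophages (TAMs) induced by supernatants of BxPC-3 or MIA PaCa-2, which are human pancreatic cancer cell lines. The design text speaks of 3 kinds of TAM, of which 2 were analysed here. Neither the species of the macrophages nor the form, length and oxygen level of the co-culture is stated in the labels, and nothing says that replicates came from separate cultures, so p-values measure only the spread between these libraries.

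Glycolysis turns glucose into pyruvate in the cytosol, and lactate dehydrogenase then reduces pyruvate to lactate. HIF is a transcription factor made of an oxygen-labile alpha subunit (Hif1a or Epas1, also called HIF-2 alpha) and the stable partner Arnt; when oxygen is plentiful, EGLN prolyl hydroxylases mark the alpha subunit for destruction. In low oxygen HIF binds a short DNA core, ACGTG or GCGTG, and raises glucose transport, glycolysis, lactate export, pH control, angiogenic signals and collagen-modifying hydroxylases. Many of these genes also answer to other inputs, such as growth factor and inflammatory signals. Schwann cells use glycolysis and export lactate to the axons they ensheathe.

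The 250 bases upstream of the annotated start were searched for ACGTG and GCGTG on both strands in RefSeq promoters of assembly GRCr8, of which 36 of the 39 genes had an entry. The core was present in 21 of 36 promoters (58.3%), in 10 of 17 enzymes (58.8%) and in 11 of 19 other genes (57.9%), against 12284 of 33469 promoters of the same length (36.7%). The palindrome CACGTG, which contains ACGTG on both strands, was present in 7 of the 36, against 1872 of the 33469 promoters. A match is a description of the letters and not a binding site. The promoters of 5 genes are shown because their levels followed different patterns across the groups, and the core is in capitals on whichever strand it reads. P4ha1 and Eno2 were highest with MDMs, Ankrd37 fell with TAMs, Slc2a1 was higher with MDMs and lower with TAMs, and Ldha was lower with MDMs and higher with MiaTAMs.
P4ha1: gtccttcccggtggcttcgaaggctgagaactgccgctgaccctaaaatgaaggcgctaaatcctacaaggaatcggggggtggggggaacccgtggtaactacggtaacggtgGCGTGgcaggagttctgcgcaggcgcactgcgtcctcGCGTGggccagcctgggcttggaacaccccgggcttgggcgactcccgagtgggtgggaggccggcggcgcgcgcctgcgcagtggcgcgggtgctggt
Eno2: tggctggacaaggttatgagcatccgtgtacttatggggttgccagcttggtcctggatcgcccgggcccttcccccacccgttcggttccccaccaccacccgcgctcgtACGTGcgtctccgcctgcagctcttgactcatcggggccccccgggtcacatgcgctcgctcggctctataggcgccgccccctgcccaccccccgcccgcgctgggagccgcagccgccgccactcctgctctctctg
Ankrd37: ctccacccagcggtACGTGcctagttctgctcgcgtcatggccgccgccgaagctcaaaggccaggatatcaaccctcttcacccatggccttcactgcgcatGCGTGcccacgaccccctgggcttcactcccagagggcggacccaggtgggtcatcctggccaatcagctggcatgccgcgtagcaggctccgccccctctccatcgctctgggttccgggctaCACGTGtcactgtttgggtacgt
Slc2a1: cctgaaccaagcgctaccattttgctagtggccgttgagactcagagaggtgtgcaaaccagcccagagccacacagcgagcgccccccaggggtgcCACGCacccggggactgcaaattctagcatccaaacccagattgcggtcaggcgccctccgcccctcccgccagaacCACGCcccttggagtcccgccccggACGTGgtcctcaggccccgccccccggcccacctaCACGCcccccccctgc
Ldha: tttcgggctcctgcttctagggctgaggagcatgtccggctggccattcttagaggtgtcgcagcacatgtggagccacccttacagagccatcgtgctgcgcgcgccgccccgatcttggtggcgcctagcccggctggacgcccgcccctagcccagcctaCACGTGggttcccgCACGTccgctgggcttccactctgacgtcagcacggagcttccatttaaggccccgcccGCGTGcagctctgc
These windows lie at chr20:27844796-27845045 (plus strand), chr4:159267221-159267470 (minus strand), chr16:53001257-53001506 (plus strand), chr5:138002272-138002521 (plus strand) and chr1:106507842-106508091 (plus strand). The core starts 136 and 99 bases before the start of P4ha1 and 139 bases before that of Eno2. Ankrd37 and Ldha each hold a CACGTG, and Slc2a1 holds 4 separate cores. All 5 promoters shown hold the core, so they cannot tell whether it goes with a direction of change. No core was found in the windows used for Car9, Car12, Vegfa, Aldoa, Gpi and Egln3, which rose with MDMs. The same held for Hk1, which fell with MDMs, and Adm, which fell with TAMs.

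Library totals ran from 16555215 to 21506669 counts, and the common dispersion was 0.00218. Median coefficients of variation between replicates were 4.84% to 6.33% over the 12360 tested genes and 2.39% to 3.68% over the tested members. Levels are given as CPM, counts scaled to a common library size with TMM factors, with SD over 3 libraries. A gene was called when its adjusted p in edgeR's quasi-likelihood test was under 0.05, and gene coordinates are those of Rnor_6.0 in the table. Differences between groups can reflect fewer cells of a type or less RNA per cell, which cannot be told apart in bulk RNA. Of 14 Schwann markers, 5 were under 1 CPM in all libraries, among them Cdh19 at 0 and Sox10 with 1 count over all 12. Ncam1, Pmp22 and Vim were present. Erbb3, Egr2 and Dhh were present at lower levels, with group means of 7.14 to 15.2, 5.88 to 12.9 and 7.73 to 20.7 CPM. Of 9 tested, 6 were higher and 1 lower with MDMs against cells alone (66.7% and 11.1%, where 32% and 33.1% of all tested genes were called). Present and absent markers thus stood side by side, and the labelled cell type was not settled by them. Of 21 macrophage markers, 15 were under 1 CPM in all libraries, Tyrobp and C1qa were at 0, and Ptprc had 0 to 2 counts per group. The summed macrophage list was 28.1 to 31.0 CPM in cells alone, 63.0 to 69.4 with MDMs, 60.8 to 62.2 with BxTAMs and 66.8 to 71.2 with MiaTAMs, most of it from Itgax. Of 5 epithelial markers, Epcam and Krt19 were at 0 in all libraries and 2 were tested, both called higher with MDMs against cells alone. The summed epithelial list, mostly Krt8, was 3.14 to 3.86 CPM in cells alone, 8.69 to 9.85 with MDMs, 3.41 to 4.61 with BxTAMs and 4.55 to 4.96 with MiaTAMs. Of 6 fibroblast markers, Col1a2, Dcn and Lum were at 0 in all libraries. The summed fibroblast list was 109 to 112 CPM in cells alone, 176 to 185 with MDMs, 146 to 165 with BxTAMs and 162 to 171 with MiaTAMs. Most of it was Pdgfra, at group means of 91.5 to 107 CPM, and Col1a1 had means of 16.9 CPM in cells alone, 73.7 with MDMs, 50.7 with BxTAMs and 74.96 with MiaTAMs. The part of the Schwann, macrophage, epithelial and fibroblast markers in the results was not tested.

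Per gene length, the set ran over a wide range in cells alone. By single rows, mean FPKM was highest for Pgk1, which makes the first ATP of the pathway (1776), then Ldha (1515), Aldoa (1390), Pkm (1224) and Gapdh (1164). The Gapdh row held 35.6% of the counts of rows described as Gapdh, the Pkm row 67.9% and the Pgk1 row 98.7%. The order of the enzymes themselves is therefore uncertain. The HIF subunit Epas1 (0.598) and Slc2a3 (0.146) were lowest. The summed FPKM of the 18 enzyme rows used, without their further rows, was 10251 ± 149 in cells alone and 13246 ± 115 with MDMs. It was 11251 ± 104 with BxTAMs and 11647 ± 235 with MiaTAMs. The MDM libraries lay above all others in this sum, and both TAM groups lay above cells alone.

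**Figure D1:**
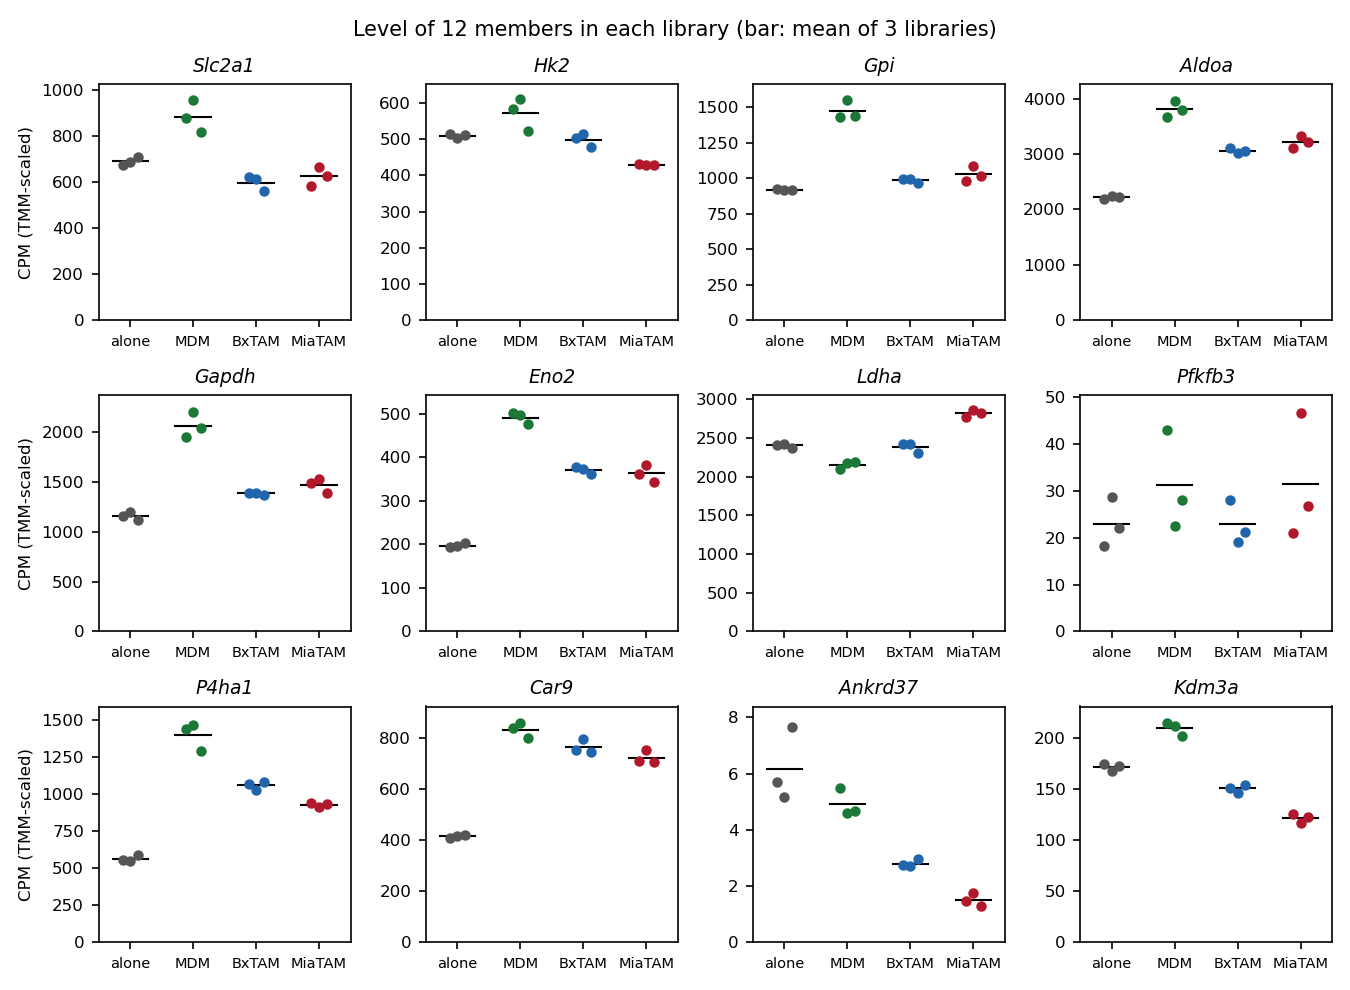
Level of 12 members in each of the 12 libraries as CPM on linear axes from 0, with points for libraries and bars for the mean of 3 libraries. P4ha1, Eno2, Gpi and Gapdh were highest in the 3 MDM libraries, Ldha in the 3 MiaTAM libraries, and Ankrd37 was lowest in the 3 MiaTAM libraries.

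With MDMs, most of the set was higher than in cells alone. Of 37 tested members 23 rose and 7 fell, where 32% of all tested genes rose and 33.1% fell. At 1.5-fold or more, 13 members rose and none fell, against 11.6% and 11% of all genes. The median log2 change of the members was 0.36 and that of all genes -0.0061. The enzymes gave 11 higher and 3 lower of 18, and the other members 12 higher and 4 lower of 19.

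The enzymes that rose most with MDMs sit at different steps. Eno2, the neuron-type enolase that makes phosphoenolpyruvate (chr4:157285179-157294047), was 193, 196 and 202 CPM in cells alone, 500, 496 and 475 with MDMs, 377, 372 and 360 with BxTAMs and 362, 382 and 343 with MiaTAMs. The 4 groups separated into cells alone at the bottom, TAMs in the middle and MDMs at the top, and Eno2 rose 2.49-fold with MDMs (log2 1.32, SE 0.04, adjusted p = 1.17e-15). Aldoc, the brain-type aldolase that splits fructose 1,6-bisphosphate, was 114 ± 4.30 CPM in cells alone and 253 ± 5.21 with MDMs, a 2.22-fold rise. Gapdh, the oxidative step (chr4:157676595-157679962), was 1158, 1197 and 1116 CPM in cells alone and 1950, 2200 and 2043 with MDMs, a 1.78-fold rise. Aldoa, the major aldolase, rose 1.72-fold, from 2220 ± 29.3 to 3809 ± 145 CPM. Gpi, which turns glucose 6-phosphate into its fructose isomer, was 923, 918 and 916 CPM in cells alone and 1432, 1549 and 1437 with MDMs, a 1.60-fold rise. Smaller rises were called for Pgk1 (log2 0.57), Pfkm (log2 0.53), Pfkfb4 (log2 0.58), Pgam1 (log2 0.17), Hk2 (log2 0.17) and Pfkp (log2 0.09). Pfkfb4, which sets fructose 2,6-bisphosphate, was only 2.77 ± 0.174 CPM in cells alone and 4.13 ± 1.07 with MDMs.

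A few enzymes did not follow. Hk1, the housekeeping hexokinase, fell from 280 ± 4.95 to 230 ± 8.27 CPM (log2 -0.28). Ldha, which makes lactate, fell from 2405 ± 24.7 to 2153 ± 49.4 CPM (log2 -0.16), and Pfkl fell slightly (log2 -0.10). Tpi1, Eno1, Pkm and Pfkfb3 were not called, with log2 changes of 0.02, 0.06, 0.03 and 0.43. Pfkfb3, the inducible kinase that raises fructose 2,6-bisphosphate, was called in none of the 6 comparisons. Its libraries were 18.2, 28.8 and 22.0 CPM in cells alone and 43.1, 22.5 and 28.1 with MDMs, so the groups overlapped.

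Among the other HIF targets, P4ha1 and P4ha2 had the largest rises with MDMs. P4ha1, the alpha subunit of collagen prolyl 4-hydroxylase (chr20:28920616-28971966), was 556, 552 and 590 CPM in cells alone, 1438, 1471 and 1294 with MDMs, 1067, 1032 and 1084 with BxTAMs and 944, 911 and 936 with MiaTAMs. Every MDM library lay above every TAM library, and every TAM library lay above cells alone. P4ha1 rose 2.48-fold with MDMs (log2 1.31, SE 0.05, adjusted p = 3.25e-15). P4ha2, its second alpha subunit, rose 2.38-fold from 141 ± 1.34 to 336 ± 6.42 CPM, and Plod2, a collagen lysyl hydroxylase, rose 1.87-fold from 566 ± 26.4 to 1061 ± 45.5 CPM. The carbonic anhydrases, which control pH outside the cell, also rose: Car9 rose from 415 ± 5.76 to 832 ± 28.3 CPM (2.00-fold) and Car12 rose 1.75-fold. Vegfa, the main angiogenic ligand, was 320, 251 and 339 CPM in cells alone and 509, 530 and 473 with MDMs, a 1.66-fold rise in a gene with wide replicate spread. Egln3, an oxygen sensor, rose 1.70-fold.

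Smaller rises with MDMs were called for Ndrg1 (log2 0.47), the histone demethylase Kdm3a (log2 0.29), the glucose transporter Slc2a1 (log2 0.36) and the pyruvate dehydrogenase kinase Pdk1 (log2 0.29). The lactate transporter Slc16a1 fell (log2 -0.30), as did the transcription factor Bhlhe40 (log2 -0.12). Adm, Bnip3 and Slc16a3 were not called, with log2 changes of -0.03, 0.01 and 0.06. The HIF subunits went opposite ways: Epas1 rose 2.66-fold from 3.62 ± 0.306 to 9.62 ± 0.219 CPM, and Hif1a fell slightly from 446 ± 8.24 to 414 ± 2.19 CPM (log2 -0.11). Epas1 made up 0.602% of the summed FPKM of both subunits in cells alone and 1.70% with MDMs, with Hif1a as the rest. On the log2(FPKM + 1) scale the change of Epas1 was 0.68 and that of Pfkfb4 0.29. Of the 30 calls, 24 held in every alternative and the 6 for Pfkl, Pfkp, Pfkfb4, Bhlhe40, Hif1a and Ankrd37 did not; each of the 6 libraries compared, left out in turn, cost at least 1 of these calls, at adjusted p of 0.0501 to 0.418. Ankrd37 (adjusted p = 0.0499, log2 -0.33) had overlapping groups and was lost in 11 alternatives, with an adjusted p of 0.418 without alone replicate 3. Pfkfb4 was lost without MDM replicate 2 (log2 0.42, adjusted p = 0.0620).

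**Figure D2:**
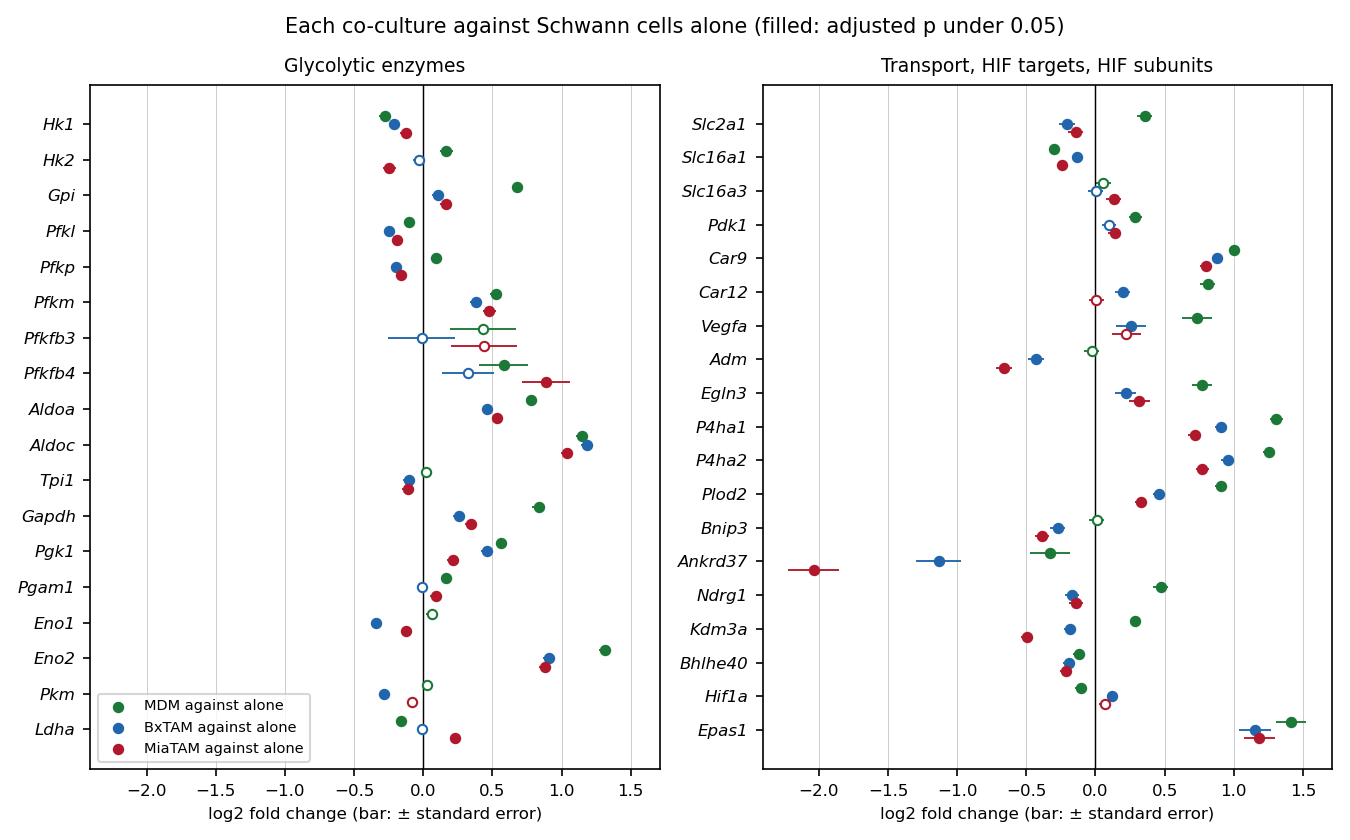
Log2 fold change of each tested member in the 3 co-cultures against cells alone (x axis), with bars for the standard error and filled points for adjusted p under 0.05. Eno2, Aldoc, P4ha1, P4ha2, Car9 and Epas1 lie to the right in all 3 co-cultures, and Ankrd37 lies far to the left with both kinds of TAM.

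With TAMs, members were called on both sides of cells alone, as were all tested genes. Against cells alone, BxTAMs gave 16 members higher and 14 lower of 37 (43.2% and 37.8%), where 30% and 30.9% of all tested genes were called. MiaTAMs gave 18 higher and 14 lower (48.6% and 37.8%), where 31.4% and 33.7% of all genes were called. The medians of the members were 0.0024 and 0.13, and those of all genes 0.0010 and -0.0063. The enzymes gave 7 higher and 6 lower of 18 with BxTAMs, and 10 and 6 with MiaTAMs. Other members gave 9 higher and 8 lower of 19 with BxTAMs, and 8 and 8 with MiaTAMs. At 1.5-fold or more, BxTAMs gave 6 higher and 1 lower (9.49% and 9.6% of all genes) and MiaTAMs 7 higher and 2 lower (11.1% and 11.1%). The 3 comparisons with cells alone share the control libraries, so their values are set side by side only.

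The aldolase isoenzyme Aldoc, the enolase isoenzyme Eno2, the collagen hydroxylases and Car9 lay above cells alone with both kinds of TAM. Aldoc was 2.27-fold and 2.06-fold higher with BxTAMs and MiaTAMs, Eno2 1.88-fold and 1.84-fold, P4ha1 1.88-fold and 1.64-fold, P4ha2 1.94-fold and 1.71-fold, and Car9 1.84-fold and 1.74-fold. Epas1 was 2.22-fold and 2.27-fold higher, at 8.03 ± 0.688 and 8.23 ± 0.391 CPM. Aldoa, Plod2, Pfkm, Gapdh, Pgk1, Egln3 and Gpi were also called higher with both kinds of TAM, from log2 0.10 for Gpi with BxTAMs to 0.53 for Aldoa with MiaTAMs. Car12 (log2 0.20), Vegfa and Hif1a (log2 0.12) were called higher with BxTAMs and not with MiaTAMs, and Pfkfb4 (log2 0.89), Pgam1 (0.09), Slc16a3 (0.13), Pdk1 (0.14) and Ldha with MiaTAMs and not with BxTAMs. Set directly against each other, MiaTAMs and BxTAMs were called different for Car12, Pfkfb4 and Ldha, and not for Vegfa, Hif1a, Pgam1, Slc16a3 and Pdk1. The Car12 difference (log2 -0.19) missed the threshold without BxTAM replicate 3 or MiaTAM replicate 1 (edgeR adjusted p = 0.0668 and 0.0575), and that of Pfkfb4 (log2 0.56) without BxTAM replicate 3, MiaTAM replicate 2 or MiaTAM replicate 3 (edgeR adjusted p = 0.0965, 0.0504 and 0.0769). On the log2(FPKM + 1) scale, which understates changes of low genes, Epas1 had 0.54 and 0.56 and Pfkfb4 with MiaTAMs 0.50.

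Other targets lay below cells alone with TAMs. Ankrd37, an ankyrin-repeat protein used as a HIF marker gene (chr16:49462889-49465888), was 5.68, 5.15 and 7.67 CPM in cells alone, 5.48, 4.60 and 4.67 with MDMs, 2.74, 2.70 and 2.97 with BxTAMs and 1.46, 1.75 and 1.30 with MiaTAMs. Neither TAM group overlapped with cells alone or MDMs, and MiaTAMs lay below BxTAMs. It was 2.20-fold lower with BxTAMs and 4.11-fold lower with MiaTAMs (log2 -2.04, SE 0.18, adjusted p = 4.49e-09). Adm, the vasodilator peptide adrenomedullin, was 60.1 ± 2.45 CPM in cells alone, 59.0 ± 3.46 with MDMs, 44.5 ± 2.45 with BxTAMs and 38.0 ± 0.418 with MiaTAMs. Its fall was called with both kinds of TAM (log2 -0.43 and -0.66). Kdm3a fell by 0.19 and 0.50 on the log2 scale, and the mitophagy receptor Bnip3 by 0.27 and 0.39.

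Slc2a1, the main glucose transporter of these cells by FPKM, was 677, 688 and 709 CPM in cells alone, 880, 957 and 818 with MDMs, 622, 613 and 562 with BxTAMs and 582, 668 and 627 with MiaTAMs. The MDM libraries were the highest and both TAM groups lay below cells alone (log2 -0.21 and -0.14). Ndrg1 had the same order, at log2 -0.17 and -0.14. Slc16a1, Bhlhe40, Hk1, Pfkl, Pfkp, Tpi1 and Eno1 were also called lower with both kinds of TAM, and Pkm with BxTAMs (log2 -0.28). Hk2 was lower with MiaTAMs (429 ± 0.725 against 509 ± 6.57 CPM) and not called with BxTAMs.

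The lactate transporters and the phosphofructokinases differed by less than 1.5-fold between all groups. Slc16a1, which moves lactate both ways across the membrane, was 214 ± 5.88 CPM in cells alone, 173 ± 3.56 with MDMs, 194 ± 5.14 with BxTAMs and 181 ± 2.78 with MiaTAMs. Slc16a3, the lactate exporter of glycolytic cells, was 162 ± 2.84, 168 ± 11.5, 162 ± 7.82 and 178 ± 13.8 CPM in the same order. Cells alone thus had the highest Slc16a1 level, while the Slc16a3 groups overlapped other than cells alone and MiaTAMs. Pfkm was 95.9 ± 4.86 CPM in cells alone and 138 ± 1.83, 125 ± 7.21 and 133 ± 2.90 in the co-cultures, higher in every co-culture library. Pfkl was 317 ± 9.58 CPM in cells alone and 295 ± 7.43, 267 ± 2.02 and 278 ± 6.99 in the co-cultures. Pfkp was 217 ± 2.36 CPM in cells alone, 231 ± 3.62 with MDMs, 189 ± 4.90 with BxTAMs and 194 ± 5.01 with MiaTAMs, so MDMs and TAMs lay on opposite sides of cells alone. Pdk1, the pyruvate dehydrogenase kinase, was 164 ± 3.28 CPM in cells alone, 200 ± 7.93 with MDMs, 175 ± 11.2 with BxTAMs and 180 ± 9.89 with MiaTAMs.

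Ldha, the last enzyme of the set, was 2412, 2425 and 2377 CPM in cells alone, 2096, 2173 and 2189 with MDMs, 2428, 2425 and 2304 with BxTAMs and 2769, 2866 and 2819 with MiaTAMs. It was lowest with MDMs and highest with MiaTAMs, where it rose against cells alone (log2 0.23, SE 0.04, adjusted p = 1.68e-05). Several small calls depended on the setting. With BxTAMs, 23 of 30 calls held in every alternative, and those of Gpi, Tpi1, Slc16a1, Vegfa, Egln3, Ndrg1 and Hif1a did not. Leaving out alone replicate 1 or 2 or any BxTAM replicate lost 5 of these calls in all, at adjusted p of 0.0551 to 0.235. Vegfa with BxTAMs (log2 0.26, adjusted p = 0.0435) had overlapping groups, and without alone replicate 2 it was 0.15 with an adjusted p of 0.235. With MiaTAMs, 24 of 32 held, and those of Hk1, Tpi1, Pgam1, Eno1, Slc2a1, Slc16a3, Pdk1 and Ndrg1 did not. Leaving out 1 library lost 7 of these, at adjusted p of 0.0540 to 0.265, and each of the 6 libraries compared cost at least 1. Without MiaTAM replicate 1, Slc2a1 had a log2 change of -0.09 (adjusted p = 0.169), and without MiaTAM replicate 2, Slc16a3 had 0.07 (adjusted p = 0.265). With upper-quartile scaling, the enzymes with MiaTAMs were 10 higher and 3 lower in place of 10 and 6, and the other members 10 and 6 in place of 8 and 8. For MDMs the other members were 12 and 1 in place of 12 and 4. All genes moved the same way under that scaling. With MiaTAMs all genes were 4664 higher and 3446 lower in place of 3877 and 4164. With MDMs all genes were 4579 and 3497 in place of 3952 and 4095.

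Set against MDM co-culture, which shares the presence of macrophages, nearly all called members were lower with TAMs. Both comparisons use the same MDM libraries, as does that of MDMs with cells alone, so these results are not independent of each other. BxTAMs gave 27 lower and 3 higher of 37, where 17.3% of all tested genes were lower and 17.4% higher. MiaTAMs gave 25 lower and 3 higher, where 21.1% were lower and 19.8% higher. The medians of the members were -0.29 and -0.25. The enzymes gave 12 lower and 1 higher of 18 with BxTAMs, and 11 and 2 with MiaTAMs. Other members gave 15 lower and 2 higher of 19 with BxTAMs, and 14 and 1 with MiaTAMs. All 13 tested HIF targets outside transport were lower by value, 12 of them called with each kind of TAM, and Bhlhe40 was not called. At 1.5-fold or more, 3 members were lower with BxTAMs (3.16% of all genes) and 6 with MiaTAMs (3.11%), and none were higher (2.02% and 2.59% of all genes). The members not called with BxTAMs were Hk1, Pfkfb3, Pfkfb4, Aldoc, Pgk1, Slc16a3 and Bhlhe40, and with MiaTAMs Pfkl, Pfkm, Pfkfb3, Pfkfb4, Pgam1, Slc16a1, Slc16a3, Bhlhe40 and Epas1.

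The shifts were broad but mostly under 1.5-fold. Ndrg1 was 352 ± 20.1 and 360 ± 9.93 CPM with BxTAMs and MiaTAMs against 549 ± 45.8 with MDMs (log2 -0.64 and -0.61). Gpi (log2 -0.58 and -0.52), Gapdh (-0.58 and -0.49) and Slc2a1 (-0.56 and -0.50) fell by similar amounts. Car12 was 95.3, 87.6 and 81.9 CPM with MDMs, 57.8, 56.2 and 58.6 with BxTAMs and 48.8, 52.0 and 50.9 with MiaTAMs, so it fell by 0.61 and 0.80 on the log2 scale, and cells alone were at 50.3 ± 1.19 CPM. Kdm3a fell by 0.48 and 0.78 on the log2 scale and Ankrd37 by 0.81 and 1.71. Vegfa fell by 0.47 and 0.51.

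The exceptions were few, and 4 members were higher. Ldha was higher with BxTAMs (log2 0.15) and MiaTAMs (log2 0.39), and Hif1a was higher with both (log2 0.23 and 0.17). Hif1a was 417, 413 and 413 CPM with MDMs, 484, 469 and 501 with BxTAMs and 477, 438 and 487 with MiaTAMs, with no overlap between MDMs and either TAM group. Slc16a1 was higher with BxTAMs (log2 0.17) and Hk1 with MiaTAMs (log2 0.15). Of the 30 BxTAM calls, 26 held in every alternative, and those of Pfkm, Tpi1, Car9 and Epas1 did not. Of the 28 MiaTAM calls, 24 held, and those of Aldoc, Tpi1, Pkm and Pdk1 did not. All 8 were lost on leaving out 1 library, at adjusted p of 0.0569 to 0.159 with BxTAMs and 0.0631 to 0.177 with MiaTAMs, and each library compared other than MiaTAM replicate 2 cost at least 1: without BxTAM replicate 3, Pfkm against MDMs was -0.10 (adjusted p = 0.142), and without MiaTAM replicate 1, Pdk1 was -0.11 (adjusted p = 0.0915).

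**Figure D3:**
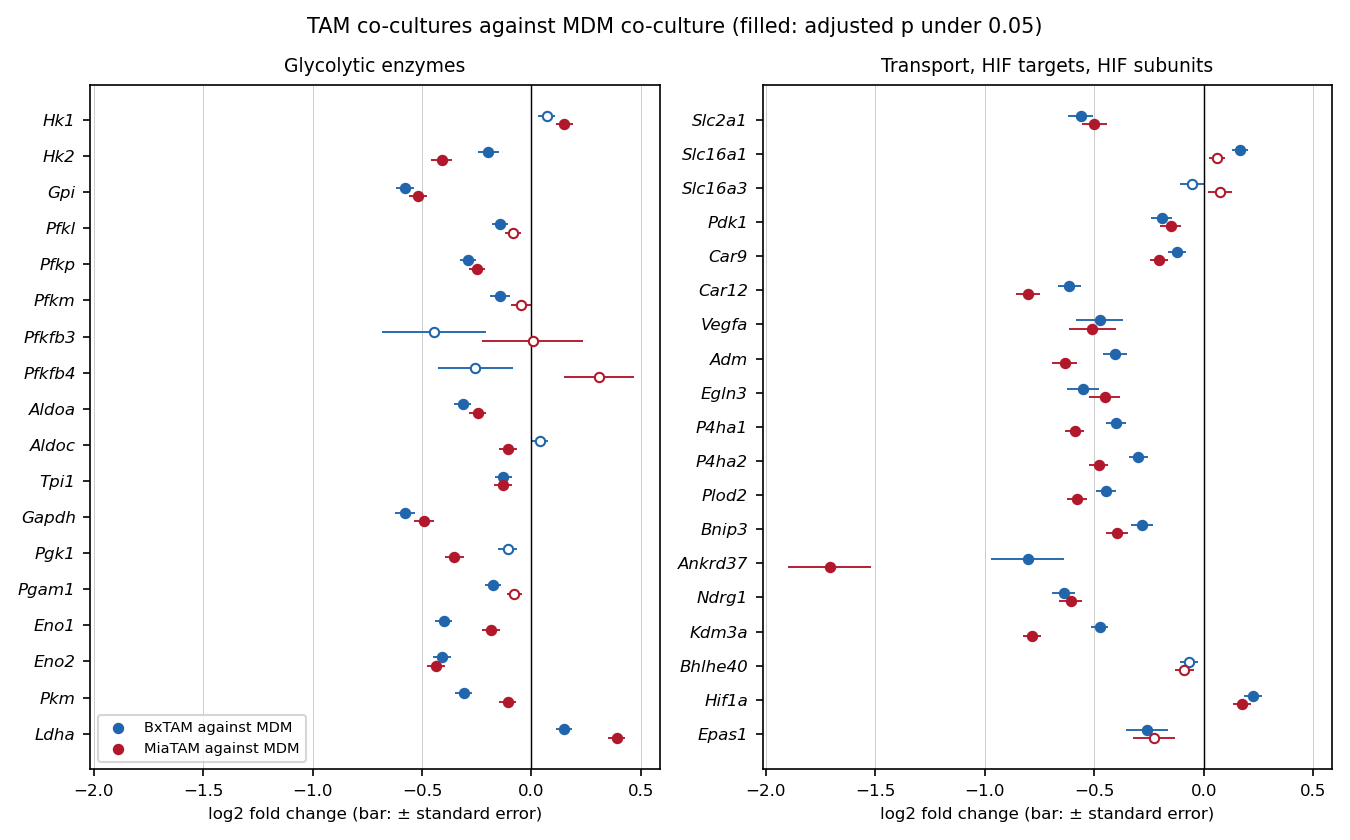
Log2 fold change of each tested member in the BxTAM and MiaTAM co-cultures against MDM co-culture (x axis), with bars for the standard error and filled points for adjusted p under 0.05. Most points lie left of 0, Ankrd37 with MiaTAMs farthest, and Ldha and Hif1a lie right of it.

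MiaTAM and BxTAM co-cultures differed less. Of 37 members, 4 were higher and 11 lower with MiaTAMs, where 11% of all tested genes were higher and 13.3% lower, and 22 were not called. The enzymes gave 4 higher and 3 lower of 18 (22.2% and 16.7%). Other members gave 0 higher and 8 lower of 19 (0% and 42.1%), so the lower calls were mostly outside the enzymes. The 1 member past 1.5-fold was Ankrd37 (log2 -0.90, SE 0.21, adjusted p = 0.00416), where 0.445% of all genes were lower and 0.882% higher by that much. Lower calls were also made for Kdm3a (log2 -0.31), Pgk1 (-0.24), Adm (-0.23), Hk2 (-0.21), P4ha1 (-0.19), Car12 (-0.19), P4ha2 (-0.18), Aldoc (-0.14), Plod2 (-0.13) and Slc16a1 (-0.11). Pgk1 was 4300, 4545 and 4394 CPM with BxTAMs and 3862, 3636 and 3681 with MiaTAMs. The 4 higher were Pfkfb4 (log2 0.56), Ldha (0.24), Eno1 (0.22) and Pkm (0.20). Of these 15 calls, 10 held in every alternative, and those of Pfkfb4, Aldoc, Slc16a1, Car12 and Plod2 did not. Each of the 6 libraries, left out in turn, cost at least 1 of these 5, at adjusted p of 0.0504 to 0.176. On the log2(FPKM + 1) scale Pfkfb4 had 0.34. Without BxTAM replicate 3, Pfkfb4 was 0.45 (adjusted p = 0.0965).

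Within steps that have more than 1 isoenzyme, the mix of transcripts differed between groups. Shares are percentages of the summed FPKM of a step and carry no test. Hk2, the inducible hexokinase, was 47.3% ± 0.687 of hexokinase in cells alone, 55.0% ± 2.52 with MDMs, 50.4% ± 1.06 with BxTAMs and 45.3% ± 0.895 with MiaTAMs. The MDM and MiaTAM groups lay on opposite sides of cells alone. Pfkm, the muscle-type phosphofructokinase, was 12.1% ± 0.441 in cells alone, 16.6% ± 0.388 with MDMs, 17.3% ± 0.620 with BxTAMs and 17.7% ± 0.207 with MiaTAMs. With rows described as the same enolase summed, Eno2 was 16.2% ± 0.397 of enolase in cells alone, 31.5% ± 0.573 with MDMs, 31.0% ± 0.186 with BxTAMs and 27.9% ± 0.270 with MiaTAMs. The Eno2 share was higher in all 9 co-culture libraries than in cells alone. Aldoc made up 2.82% to 4.56% of aldolase, and P4ha1 85.1% to 86.0% of the prolyl 4-hydroxylase alpha subunits, as group means.

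**Figure D4:**
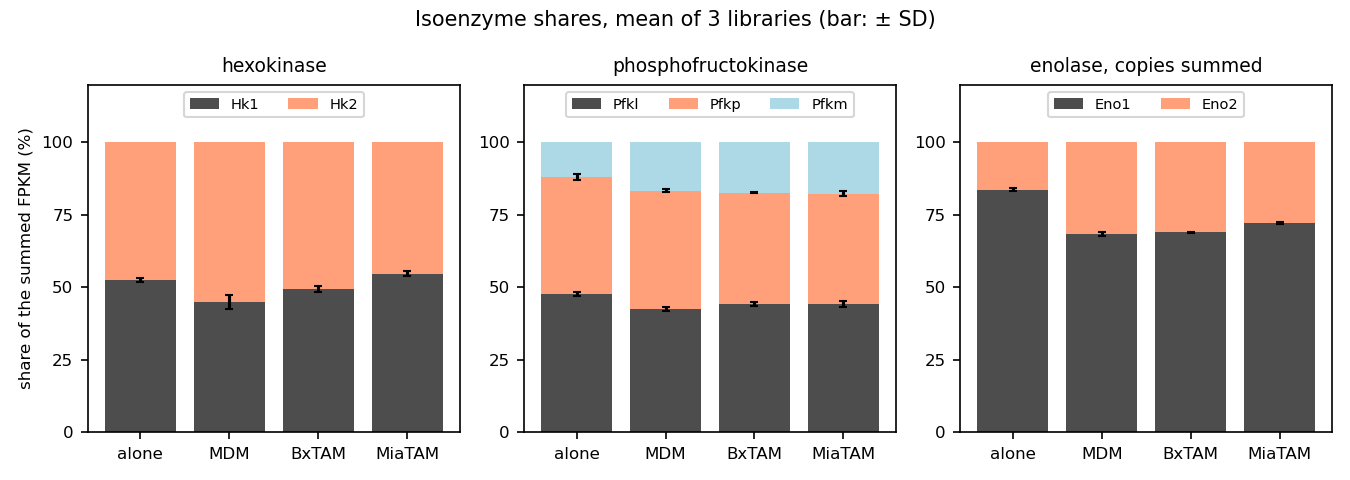
Share of each isoenzyme in the summed FPKM of its step, as stacked bars of the mean of 3 libraries per group with error bars for the SD, for hexokinase, phosphofructokinase and enolase (rows described as the same enolase summed). The Hk2 share is highest with MDMs and lowest with MiaTAMs, and the Eno2 share is higher in all co-culture libraries than in cells alone.

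Several enzymes have further rows in the table that are described as the same enzyme, and counting could split reads between them, so the absolute levels of single rows are uncertain. The Gapdh row held 35.6% of the counts of 10 rows so described, with LOC685186 at 27.9%, RGD1565368 at 21.9% and RGD1564688 at 13.3%. These rows moved alike with MDMs, at log2 0.84 for Gapdh and 0.88, 0.88 and 0.86 for the others. The Eno2 row held 31.6% against 68.4% for LOC100911625, and the Tpi1 row 33.2% against 66.4% for LOC100911515. Pkm has 2 rows, of which the one with more counts, on chr20:18058245-18060661, held 67.9% and was used, and the other lies on chr8:64481172-64502722. The Pkm promoter searched above lies on chromosome 8 of GRCr8, the chromosome of the row not used. The labels do not state whether counting used the strand. With rows of an enzyme summed, the MDM change was 0.86 for Gapdh, 1.29 for Eno2, 0.05 for Tpi1 and 0.03 for Pkm. That lost 2 of the 165 calls, those of Ankrd37 with MDMs and of Tpi1 with MiaTAMs, both against cells alone.

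**Figure D5:**
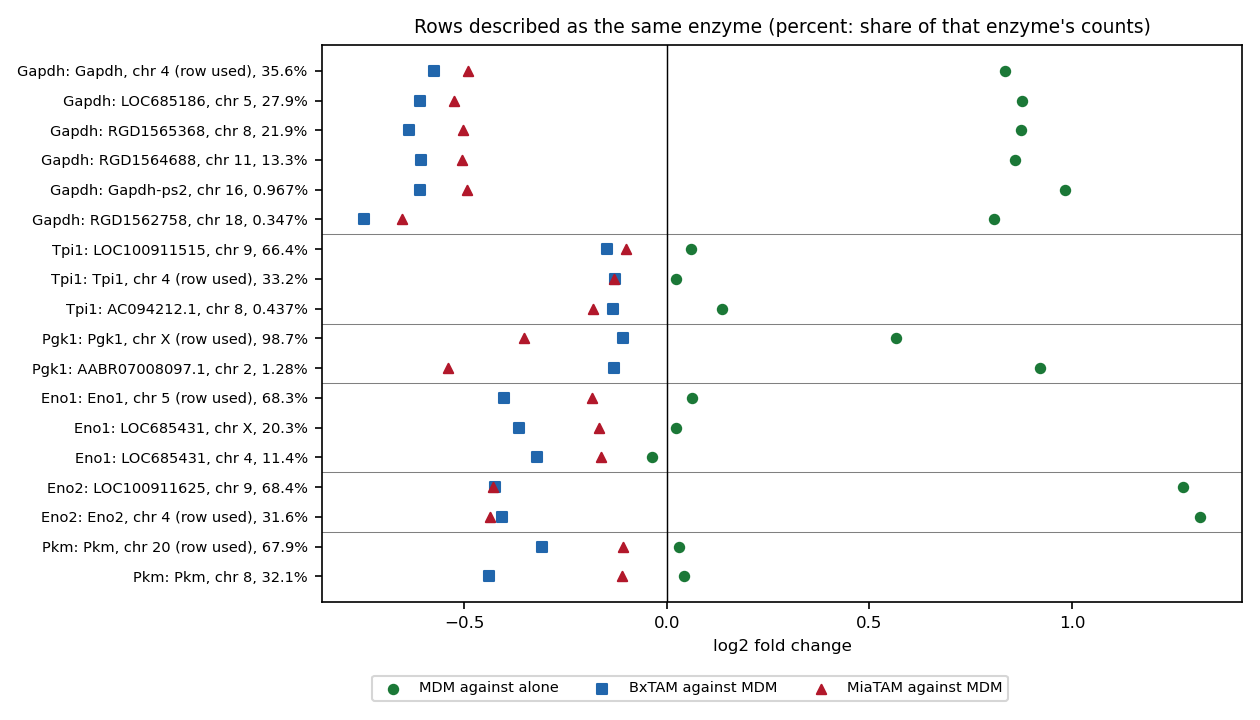
Log2 fold change of the tested rows described as Gapdh, Tpi1, Pgk1, Eno1, Eno2 and Pkm (x axis), for MDMs against cells alone and each kind of TAM against MDMs, with the row used and each row's share of counts in the labels. The 2 Eno2 rows lie close together in all 3 comparisons, at 1.32 and 1.27 with MDMs.

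Further genes of the same pathways, from lists set out beside the members, are given by their counts. Of 34 tested further HIF targets, 18 were higher and 9 lower with MDMs against cells alone (52.9% and 26.5%, where 32% and 33.1% of all tested genes were called). Against MDMs, 20 were lower and 3 higher with BxTAMs (58.8% and 8.82%, against 17.3% and 17.4% of all genes), and 22 lower and 4 higher with MiaTAMs (64.7% and 11.8%, against 21.1% and 19.8% of all genes). P4hb, the beta subunit of prolyl 4-hydroxylase, rose with MDMs from 1266 ± 38.8 to 3089 ± 132 CPM (log2 1.29). The transferrin receptor Tfrc and the glycogen branching enzyme Gbe1 were lower with BxTAMs than with MDMs (log2 -1.14 and -0.95) and with MiaTAMs (-1.17 and -0.95). Of 23 tested further glycolysis and pyruvate genes, 10 were higher and 3 lower with MDMs against cells alone (43.5% and 13.0%, against 32% and 33.1% of all genes). Against MDMs, 4 were lower and 1 higher with BxTAMs (17.4% and 4.35%, against 17.3% and 17.4% of all genes). With MiaTAMs, 7 were lower and 2 higher (30.4% and 8.70%, against 21.1% and 19.8%). Unlike for the further HIF targets, the share lower with BxTAMs was thus near that of all genes. The muscle enolase Eno3 fell in all 3 co-cultures (log2 -0.86, -1.18 and -1.03), opposite to Eno2, and Hk3 rose from a level of 0.408 ± 0.124 CPM. Of 14 tested genes of the pentose phosphate and serine branches, 9 were lower and 2 higher with MDMs against cells alone (64.3% and 14.3%, against 33.1% and 32% of all genes). The counts were the same with BxTAMs (against 30.9% and 30% of all genes). With MiaTAMs 7 were lower and 3 higher (50% and 21.4%, against 33.7% and 31.4%). Psat1, of serine synthesis, fell in all 3 (log2 -1.27, -1.24 and -1.33), as did Shmt1 (log2 -2.18, -2.30 and -1.91). Of 11 tested oxygen-sensing and partner genes, 6 were lower and 2 higher with MDMs against cells alone (54.5% and 18.2%, against 33.1% and 32% of all genes). With each kind of TAM 4 were lower and 2 higher against cells alone (36.4% and 18.2%). The shares of all genes were 30.9% and 30% with BxTAMs and 33.7% and 31.4% with MiaTAMs. Those lower with MDMs include the coactivator Crebbp (log2 -0.44) and Cul2, a part of the VHL ubiquitin ligase (log2 -0.41). Arnt was lower with MiaTAMs than with MDMs (log2 -0.33) and BxTAMs (-0.24).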

How the data were processed

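RNA of 12 libraries of rat Schwann cells was sequenced from stranded mRNA libraries, per the labels' protocols. CASAVA, HISAT2, StringTie 1.3.0 and the build Rnor_6.0 are named in the submitters' processing notes. No source read here names the counting tool or its strand setting. Whole-number counts and FPKM values (scaled by the authors to gene length and library total) stand side by side in the deposited table, per the file headers. The members and lists were chosen with earlier results of these data known. Members were matched by gene name, and of several rows the one with the most counts was used. Some further list genes, such as Elob and Eloc, were matched by synonym, and 4 list genes were not matched. Some genes of the further lists are not reported here by name. Counts were tested in edgeR 4.0.16 (R 4.3.3) in 1 quasi-likelihood fit over all 12 libraries without a block, with TMM factors of 0.980 to 1.01, filterByExpr (12360 genes) and Benjamini-Hochberg adjustment over all genes. All members are named. From each further list at most 2 called genes with the smallest p per comparison are named, and the text gives a part of them. Alternatives were other size factors, DESeq2 1.42.0, limma 3.58.1 on log2(FPKM + 1), other filters, the replicate block and leaving out each library. Summing rows of the same enzyme was chosen after seeing the data. No pair of libraries within a group agreed within sampling noise (chi-square per gene 2.34 to 7.26 over 12 pairs). The code was tested on simulated data.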

Additional observations from a re-analysis of the deposited data

How the results depend on the processing

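Of 165 called member changes, 131 held in every alternative, and of 3552 recomputed member values none reversed a call, 153 lost one and 40 gained one. Changes of sign in values called in neither fit (53) were not counted as reversals. Upper-quartile scaling lost 16 calls, the most of any alternative. It also moved all genes toward higher calls against cells alone. With MDMs all genes were 4579 higher and 3497 lower in place of 3952 and 4095. With MiaTAMs all genes were 4664 and 3446 in place of 3877 and 4164. Other members called lower with MDMs against cells alone numbered 4, but 1 with upper-quartile scaling, 2 with at least 50 counts in 3 libraries and 1 to 4 when a library was left out. Enzymes called lower with MiaTAMs against cells alone numbered 6, but 3 with upper-quartile scaling. Other members called higher with MiaTAMs against BxTAMs numbered 0, but 1 with the replicate block and 0 to 1 when a library was left out. All genes called higher with MiaTAMs against BxTAMs numbered 1356, and 816 to 1406 when a library was left out, with 816 without BxTAM replicate 2, 857 without BxTAM replicate 3 and 838 without MiaTAM replicate 2. The cause of these shifts was not tested. The replicate block is not a pairing: libraries of the same number correlated at -0.127 to 0.0892, and 12 of 36 correlated best with their own number. With the replicate block 1328 genes were called higher and 1665 lower with MiaTAMs against BxTAMs. Slc2a3 had too few counts to be tested. Ankrd37, Pfkfb4 and Epas1 were under 10 CPM as group means, and whether depth limited their calls was not tested.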
